A study of Mus musculus with 20 samples.

Results

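Amino acid transporters of the solute carrier families SLC1, SLC3, SLC6, SLC7, SLC36, SLC38 and SLC43 were examined in mouse liver. Members were the rows of the deposited gene table that are annotated as protein coding and named Slc1a, Slc3a, Slc6a, Slc7a, Slc36a, Slc38a or Slc43a with a number, with or without the ending os, and 2 further genes of these families were left out by the same rule. The rule used names only and no measured value, and it gave 59 of the 38924 genes in the table, of which 22572 are protein coding. One member, Slc7a6os, is the neighbour of Slc7a6 on the opposite strand and not a carrier itself.

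Poly(A) RNA from the livers of 20 male mice, 5 per group, was sequenced to ask how loss of thrombospondin-1 (TSP-1) alters a dietary model of steatohepatitis. Wild type (WT) C57BL/6J mice and TSP-1 null mice, a purchased line that carries the deletion in every tissue from birth, arrived at 5 weeks of age, were acclimated for 1 week and then ate their diet for 12 weeks. The diets were a control chow and CDAHFD, a high fat chow that lacks choline, holds little methionine and supplies its amino acids in free form. WT mice form the groups NDWT (control chow) and HFWT (CDAHFD), and TSP-1 null mice the groups NDKO (control chow) and HFKO (CDAHFD), with 1 mouse per library. The study purchased both the C57BL/6J mice and the null mice, and it places the TSP-1 deficiency in a C57BL/6J background. It describes no littermate controls. How much of each amino acid the control chow held is not given in the sources used here. Libraries held 15641545 to 23276322 fragments assigned to genes. HFWT 5 stood apart from its group, with a chi-square per degree of freedom of 74.1 to 95.1 against the other 4 HFWT libraries and 16.4 to 40.4 among those 4, and it held the lowest HFWT value of 18 of the 32 members tested below.

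Thbs1, the gene that encodes TSP-1, went against the genotype labels on the control diet. It read 0.058 to 0.326 FPKM in the 5 NDWT libraries and 0.986 to 1.90 FPKM in the 5 libraries labelled NDKO. On CDAHFD the ranges met, at 3.46 to 6.10 FPKM in HFWT and 3.05 to 4.40 FPKM in HFKO. The table holds 1 value per gene over all of its exons, so a transcript that lacks the deleted part cannot be told apart from an intact one. Every direction given below for genotype therefore rests on libraries labelled TSP-1 null.

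Carriers of these families move amino acids, and some of them creatine, taurine, betaine and GABA, across the plasma membrane and the lysosomal membrane. SLC7 light chains reach the cell surface bound to an SLC3 heavy chain and mostly exchange 1 amino acid for another, whereas SLC38 system A and system N carriers are driven by sodium and concentrate small neutral amino acids and glutamine. The liver takes up amino acids from portal blood for protein synthesis, gluconeogenesis and the urea cycle, and several of these carriers are under the control of the amino acid response, in which the kinase GCN2 and the transcription factor ATF4 react to amino acid shortage.

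FPKM, the fragments of a gene divided by its length and by the library's assigned fragments, compares levels between genes because it is per length. A gene was tested where FPKM was above 0.5 in at least 5 of 20 libraries, which 32 of the 59 members and 14524 genes in all did. The other 27 members never exceeded 0.278 FPKM in any library, and 6 of them, Slc6a2, Slc6a3, Slc6a5, Slc6a18, Slc7a12 and Slc7a14, were listed at 0 in all 20. On a gene of 1 kb a count of 0 allows up to 3 fragments, or 0.129 to 0.192 FPKM in these libraries, which covers counting error only. Among the 27 were the glutamate carriers Slc1a1, Slc1a3, Slc1a6 and Slc1a7 (highest values 0.151 to 0.176 FPKM), the light chain Slc7a9 (0.040 FPKM), which pairs with the heavy chain Slc3a1 in kidney, and the epithelial neutral carrier Slc6a19 (0.058 FPKM). The remaining untested members included Slc6a4, Slc6a11, Slc6a14, Slc6a15, Slc6a17, Slc7a3, Slc7a10, Slc7a13, Slc7a15, Slc36a2, Slc36a3, Slc38a5, Slc38a8 and Slc38a11.

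The SLC38 carriers Slc38a3 and Slc38a4 held the highest levels, and together they exceeded the other members' summed FPKM in every library but HFWT 1. Slc38a3, the system N glutamine carrier of hepatocytes (ENSMUSG00000010064.9, GRCm38 chromosome 9, 107650639 to 107668968, minus strand), averaged 320.4 ± 19.0 FPKM in NDWT (SD, n = 5) and ranked first of the 32 tested members in every group. Slc38a4, a system A carrier that is abundant in liver (ENSMUSG00000022464.7, GRCm38 chromosome 15, 96994823 to 97055956, minus strand), averaged 272 ± 48.5 FPKM and ranked second in every group. Next came Slc7a2, the low affinity carrier of arginine and lysine, and Slc6a13, a carrier of GABA and taurine, which stood at 57.7 ± 16.7 and 61.8 ± 6.16 FPKM in NDWT and whose ranges overlapped. Summed over the 59 members, FPKM ran from 818 to 932 in NDWT, 938 to 1173 in NDKO, 858 to 1019 in HFWT and 999 to 1082 in HFKO. Slc38a3 and Slc38a4 together made 67.7% ± 2.45 of that sum in NDWT and 68.9% ± 1.37 in NDKO, but 53.0% ± 3.46 in HFWT and 56.3% ± 2.02 in HFKO. The share was lower in each of the 10 CDAHFD libraries (48.5% to 59.3%) than in each of the 10 control libraries (65.1% to 71.7%).

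**Figure D1:**
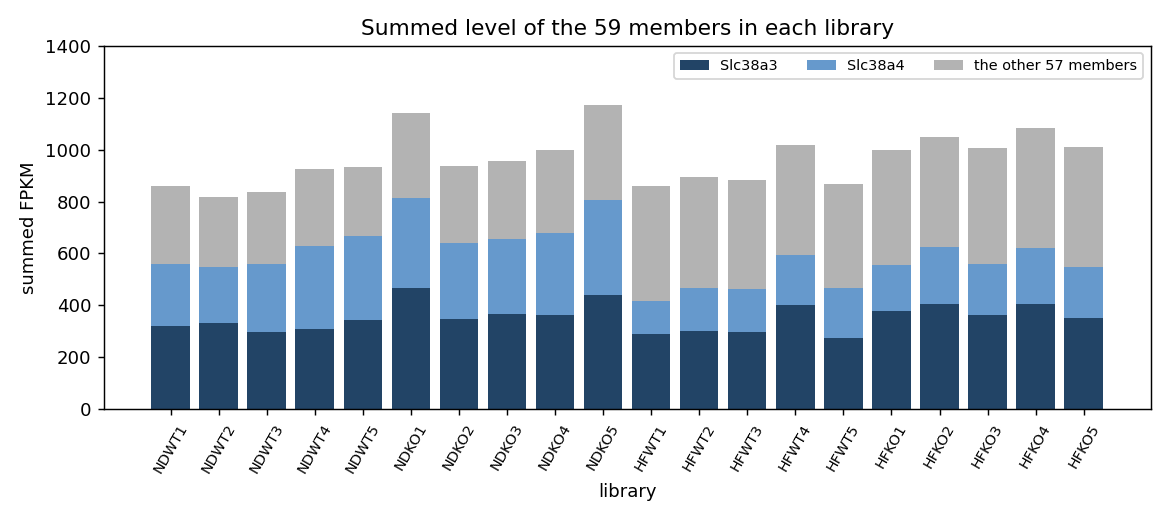
Summed FPKM of the 59 members in each library (bars), split into Slc38a3, Slc38a4 and the rest, for 5 libraries each of NDWT, NDKO, HFWT and HFKO. The total stays between 818 and 1173 FPKM, while the part that is neither Slc38a3 nor Slc38a4 is a larger share of it in the CDAHFD libraries.

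The effect of the diet was examined within each genotype. In WT mice 22 of the 32 tested members were higher and 2 were lower on CDAHFD, where 44.1% of all tested genes were higher and 4.62% lower. In mice labelled TSP-1 null 24 were higher and 4 lower, where 41.9% of all tested genes were higher and 4.00% lower. A member was called higher or lower at a limma FDR under 0.05 and an absolute log2 fold change (log2FC) above 0.58 on log2(FPKM + 0.1), which understates the change of low genes. The members' median log2FC was 1.10 in WT and 1.13 in mice labelled null, against 0.53 and 0.50 for all tested genes. Without HFWT 5, 23 members were higher and 2 lower in WT, where 6568 and 636 of 14433 tested genes were. In these shares of assigned fragments the median gene thus stood higher on CDAHFD, and median of ratios scaling set that median to 0.01 and 0.0026. Under that scaling 16 members were higher and 6 lower in WT (23.1% and 14.8% of all tested genes), and 17 were higher and 4 lower in mice labelled null (22.6% and 13.2%). Relative to the median gene, 23 of 32 members lay above it in WT and 24 of 32 in mice labelled null. Each of these counts on the higher side, scaled or not, holds 5 members that passed the filter through CDAHFD libraries alone. The members' medians also hold those 5 and are raised by them, and no median without them is given. Counts without those 5 are given below for the unscaled values.

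Across both diet comparisons 21 members were called higher in each and 2, Slc6a16 and Slc38a4, were called lower in each. One was called in WT alone (Slc43a1), 5 in mice labelled null alone (Slc6a9, Slc6a12, Slc6a13, Slc7a2 and Slc38a7) and 3 in neither (Slc38a2, Slc38a3 and Slc7a6os), and none was called in opposite directions. No difference between the diet responses of the genotypes passed the test for any of these members, as given further on. The members Slc6a7, Slc7a1, Slc7a4, Slc7a6 and Slc38a1 (5 in all) passed the filter with no control library above 0.5 FPKM, so they had to be higher on CDAHFD. Of the 27 that were above 0.5 FPKM in at least 5 control libraries, 17 were higher and 2 lower in WT (63.0% higher, against 37.9% of the 12117 genes kept that way), and 19 were higher and 4 lower in mice labelled null (70.4% against 35.9%). The 5 libraries of each diet did not overlap for 26 of 32 members in WT (56.2% of all tested genes) and for 27 of 32 in mice labelled null (57.8%), counts that hold those 5 members. Of the 27 without them, 21 did not overlap in WT (54.5% of the 12117 genes) and 22 in mice labelled null (56.7%).

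**Figure D2:**
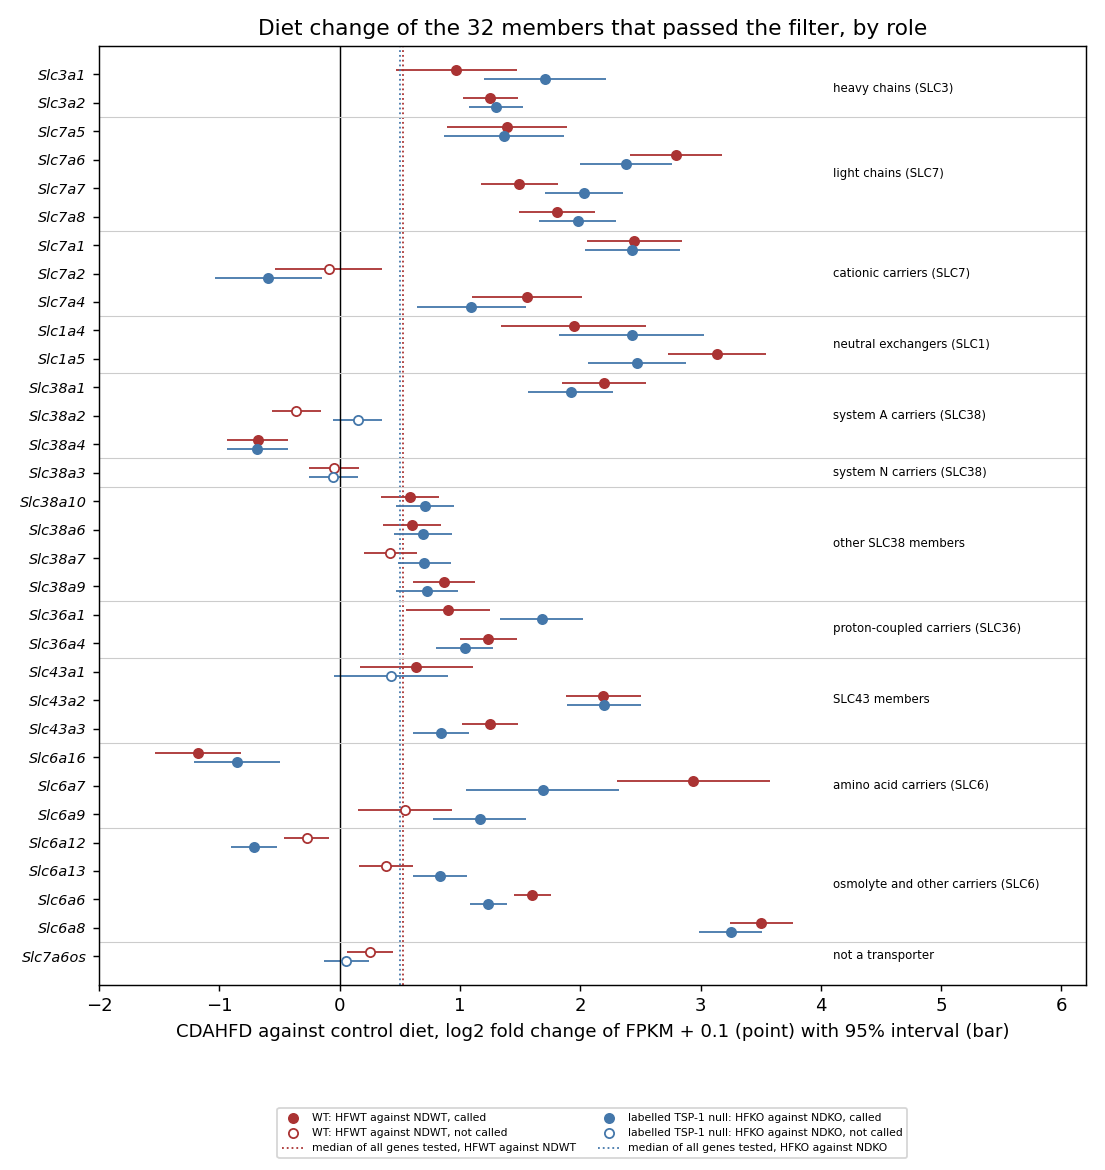
Diet change of the 32 members that passed the filter, as log2FC of FPKM + 0.1 for CDAHFD against control diet with its 95% interval (bar), for WT (red) and mice labelled TSP-1 null (blue), grouped by role. Filled points were called and open points were not, and dotted lines mark the median of all tested genes, 0.53 in WT and 0.50 in mice labelled null. Most members lie to the right of those medians, while Slc6a16, Slc38a4, Slc6a12, Slc7a2, Slc38a2, Slc38a3 and Slc7a6os lie to the left of both.

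Both heavy chains and the 4 tested light chains were called higher on CDAHFD in both genotypes, as were 44.1% (WT) and 41.9% (labelled null) of all tested genes. Of these 6 members Slc7a6 passed the filter through CDAHFD libraries alone. Slc3a2, the heavy chain that brings most SLC7 light chains to the surface (ENSMUSG00000010095.7, GRCm38 chromosome 19, 8706882 to 8723369, minus strand), read 12.8, 14.5, 12.9, 13.3 and 11.6 FPKM in NDWT and 11.9, 13.7, 12.4, 10.5 and 11.5 FPKM in NDKO. In HFWT it read 34.6, 35.4, 29.5, 33.3 and 24.1 FPKM and in HFKO 24.8, 26.5, 32.1, 30.6 and 35.1 FPKM. Each CDAHFD library stood well above each control library, and the log2FC was 1.25 (SE 0.11, FDR 5.07e-09) in WT and 1.30 (SE 0.11, FDR 3.74e-09) in mice labelled null. Slc3a1, the other heavy chain, rose by 0.97 (SE 0.24, FDR 0.00132) in WT and 1.71 (SE 0.24, FDR 3.64e-06) in mice labelled null, and the WT call was lost under median of ratios scaling (0.44, FDR 0.127) and quantile normalization (0.42, FDR 0.134). Of its exon bases in GENCODE M21, 26.5% are shared with Prepl on the other strand, and whether the authors counted by strand is not given in the sources used here.

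Slc7a8, a light chain for small and large neutral amino acids (ENSMUSG00000022180.6, GRCm38 chromosome 14, 54722216 to 54781886, minus strand), had the highest level of the tested light chains. It read 2.41, 2.73, 3.16, 1.94 and 2.30 FPKM in NDWT, 2.51, 1.74, 2.02, 2.12 and 2.11 FPKM in NDKO, 10.4, 9.55, 9.71, 8.44 and 6.88 FPKM in HFWT and 7.76, 8.45, 8.92, 6.41 and 11.9 FPKM in HFKO. No control library reached the lowest CDAHFD library, and the log2FC was 1.81 (SE 0.15, FDR 3.56e-09) in WT and 1.98 (SE 0.15, FDR 1.21e-09) in mice labelled null. Slc7a7, a light chain that exports cationic amino acids, rose by 1.49 in WT and 2.03 in mice labelled null on the log2 scale. Slc7a5, the carrier of large neutral amino acids such as leucine that is typical of growing cells, went from 0.785 ± 0.237 FPKM in NDWT to 2.21 ± 0.536 FPKM in HFWT, a log2FC of 1.39 (SE 0.24, FDR 3.36e-05), and rose by 1.37 (SE 0.24, FDR 4.36e-05) in mice labelled null. Both calls of Slc7a5 were lost under quantile normalization (0.43, FDR 0.102 and 0.52, FDR 0.052). It remained far below its partner Slc3a2 in each of the 4 groups.

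Slc7a6, a further light chain that exchanges cationic for neutral amino acids (ENSMUSG00000031904.4, GRCm38 chromosome 8, 106168875 to 106198704, plus strand), was close to the floor of detection on the control diet, with 0.0690, 0.0960, 0.105, 0.141 and 0.0810 FPKM in NDWT (6 to 9 fragments per library) and 0.0910, 0.0350, 0.0860, 0.151 and 0.0800 FPKM in NDKO (3 to 9 fragments). It read 1.47, 1.25, 1.20, 1.24 and 1.21 FPKM in HFWT and 0.984, 0.720, 1.04, 0.678 and 0.957 FPKM in HFKO. The log2FC of 2.80 (SE 0.18, FDR 1.08e-10) in WT and 2.38 (SE 0.18, FDR 1.19e-09) in mice labelled null was computed from these few fragments and depends on the pseudocount. Among the members this was the only one whose HFWT and HFKO libraries did not overlap (4.98% of all tested genes), with a difference of -0.51 (SE 0.18, FDR 0.167) that was not called.

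The cationic carriers parted. Slc7a1, the widely expressed arginine carrier that adult liver makes little of (ENSMUSG00000041313.8, GRCm38 chromosome 5, 148327410 to 148399904, minus strand), read 0.148, 0.151, 0.306, 0.124 and 0.140 FPKM in NDWT and 0.142, 0.170, 0.178, 0.0910 and 0.164 FPKM in NDKO. In HFWT it read 1.80, 1.65, 1.21, 1.13 and 1.14 FPKM and in HFKO 1.18, 1.32, 1.23, 0.995 and 1.49 FPKM. The diets were far apart in both genotypes, with a log2FC of 2.45 (SE 0.19, FDR 1.04e-09) in WT and 2.43 (SE 0.19, FDR 1.4e-09) in mice labelled null. Slc7a1, like Slc7a4, passed the filter through CDAHFD libraries alone, so it had to be higher there. It held 16 to 41 fragments per NDWT library and 11 to 29 per NDKO library. Over the alternative settings its log2FC ran from 1.02 to 3.02 in WT and from 0.96 to 3.03 in mice labelled null. Slc7a4, a relative of these carriers whose transport function is not settled, was also called higher (1.56 and 1.09), at 0.603 ± 0.184 FPKM in HFWT, but rested on 8 to 12 fragments per NDWT library and 7 to 23 per NDKO library. Both calls of Slc7a4 were lost with a pseudocount of 1 (0.49 and 0.32) and under quantile normalization (0.05 and -0.33). Slc7a2, the liver's main cationic carrier, did not pass the test in WT (-0.09 (SE 0.21, FDR 0.707), 95% interval -0.54 to 0.35) and was lower on CDAHFD in mice labelled null (-0.59 (SE 0.21, FDR 0.0173)). That call is close to the fold threshold and is lost without NDKO 4, NDKO 5, HFKO 1 or HFKO 3.

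Both neutral exchangers of the SLC1 family rose. Slc1a5, which takes up glutamine in exchange for other neutral amino acids (ENSMUSG00000001918.11, GRCm38 chromosome 7, 16781346 to 16798274, plus strand), read 0.455, 0.678, 0.419, 0.701 and 0.398 FPKM in NDWT and 1.19, 0.646, 0.811, 0.708 and 0.536 FPKM in NDKO. On CDAHFD it read 6.24, 6.13, 4.84, 6.45 and 3.54 FPKM in HFWT and 4.58, 4.28, 5.30, 3.94 and 5.21 FPKM in HFKO. Every CDAHFD library exceeded every control library, and the log2FC was 3.13 (SE 0.19, FDR 5.26e-11) in WT and 2.47 (SE 0.19, FDR 1.62e-09) in mice labelled null. Slc1a4, the exchanger of alanine, serine and cysteine (ENSMUSG00000020142.6, GRCm38 chromosome 11, 20302180 to 20332713, minus strand), read 0.985, 1.496, 0.644, 0.772 and 0.996 FPKM in NDWT, 0.629, 0.605, 0.490, 0.351 and 1.31 FPKM in NDKO, 5.65, 3.85, 3.88, 4.07 and 2.65 FPKM in HFWT and 4.05, 4.90, 5.38, 2.09 and 3.40 FPKM in HFKO. The lowest CDAHFD library, HFKO 4, still lay above the highest control library, and the log2FC was 1.94 (SE 0.29, FDR 5.96e-06) in WT and 2.43 (SE 0.29, FDR 3.97e-07) in mice labelled null.

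**Figure D3:**
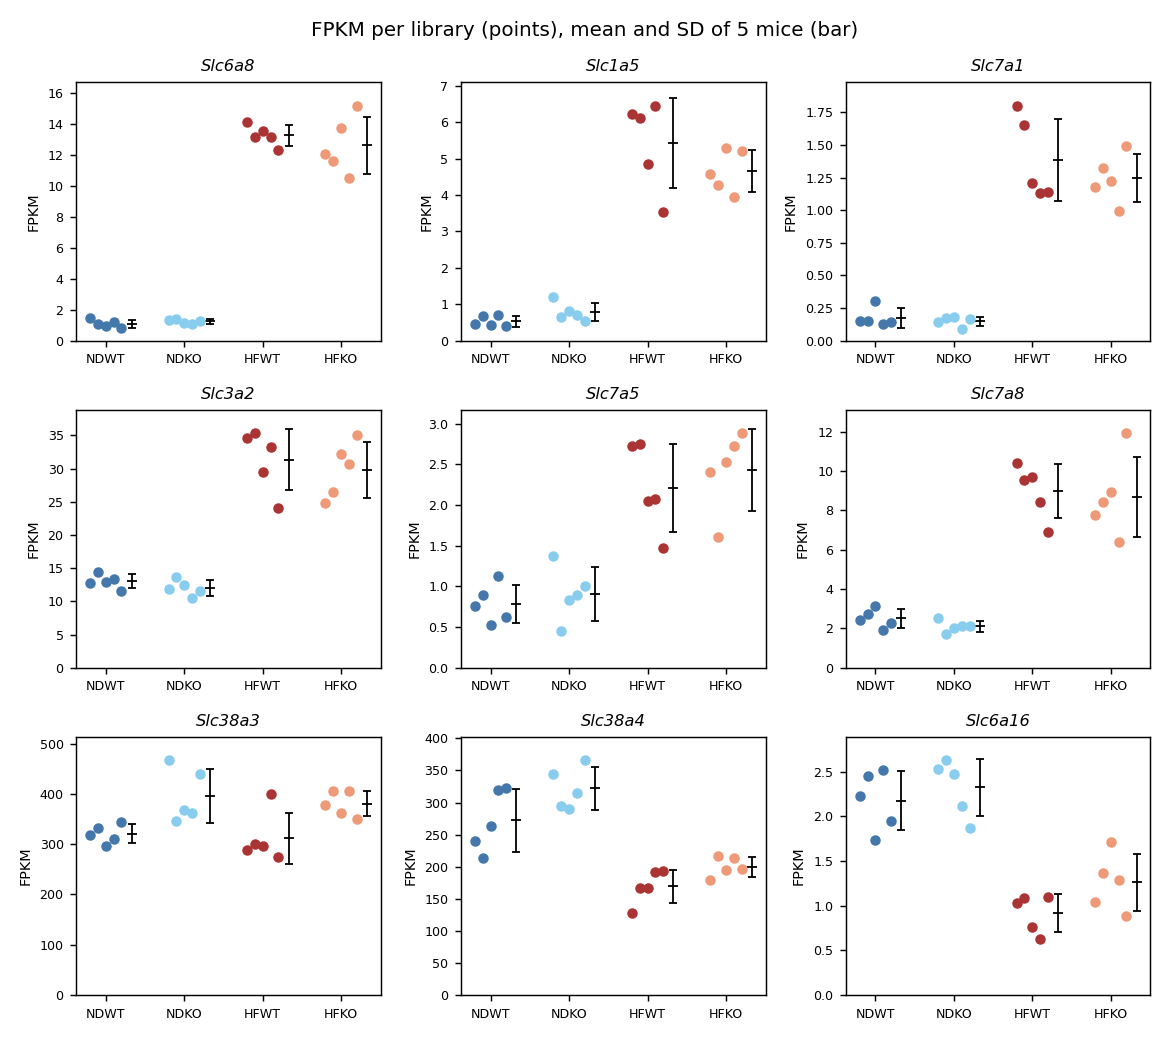
FPKM of 9 members in each library (points, 5 per group) with the mean and SD of the group (bar), each on a linear axis from 0. For Slc6a8, Slc1a5, Slc7a1, Slc3a2, Slc7a5 and Slc7a8 the CDAHFD libraries stand above the control libraries, for Slc38a4 and Slc6a16 they stand below those of the same genotype, and for Slc38a3 the diets overlap.

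The 3 system A carriers went in different directions. Slc38a4, the most abundant of them, read 240.3, 213, 264, 319.8 and 323 FPKM in NDWT and 345, 295, 289, 315 and 366 FPKM in NDKO. In HFWT it read 128, 166, 167, 191 and 193 FPKM and in HFKO 179, 217, 195, 213 and 196 FPKM. The CDAHFD libraries lay below the control libraries of the same genotype, and the log2FC was -0.68 (SE 0.12, FDR 4.57e-05) in WT and -0.68 (SE 0.12, FDR 4.73e-05) in mice labelled null. Slc38a1, a carrier of glutamine that normal hepatocytes hardly express, rose from 0.338 ± 0.0421 to 1.91 ± 0.177 FPKM in WT (2.20 (SE 0.17, FDR 8.3e-10)) and by 1.92 in mice labelled null. It passed the filter through CDAHFD libraries alone. Slc38a2, the system A carrier best known for its induction by amino acid shortage, was not called in either diet comparison: it stood at 24.6 ± 4.08 FPKM in NDWT and 19.0 ± 1.65 FPKM in HFWT (-0.36 (SE 0.10, FDR 0.0027)), and at 19.8 ± 2.27 and 21.9 ± 0.753 FPKM in NDKO and HFKO (0.15 (SE 0.10, FDR 0.175)). Relative to the median gene these changes were -0.89 and -0.35, and under median of ratios scaling the WT change was called lower.

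Slc38a3, the system N carrier, read 319, 332, 296, 310.0 and 345 FPKM in NDWT and 467, 345, 367, 362 and 441 FPKM in NDKO. In HFWT it read 288, 301, 296, 401 and 274 FPKM and in HFKO 377, 406, 363, 406 and 350.1 FPKM. The diets overlapped in both genotypes, with 95% intervals of the diet log2FC of -0.26 to 0.16 in WT and -0.26 to 0.15 in mice labelled null, and relative to the median gene it changed by -0.58 and -0.55. Median of ratios scaling called it lower in WT (-0.59, FDR 7.24e-05), close to the fold threshold, and not in mice labelled null (-0.57). Quantile normalization called it in neither (0.076, FDR 0.52 in WT and 0.097, FDR 0.409 in mice labelled null).

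Among the other SLC38 members Slc38a10, a little studied one with the highest level of these 4, read 27.6, 25.2, 22.5, 20.7 and 20.4 FPKM in NDWT, 24.9, 24.6, 23.7, 20.4 and 18.3 FPKM in NDKO, 44.8, 34.9, 33.9, 34.4 and 28.0 FPKM in HFWT and 33.4, 34.9, 36.6, 36.3 and 41.8 FPKM in HFKO. It was higher on CDAHFD by 0.59 (SE 0.12, FDR 0.000137) in WT and 0.71 (SE 0.12, FDR 1.78e-05) in mice labelled null, which is within 0.21 of the median gene in both. Slc38a9, the lysosomal arginine sensor of the mTORC1 pathway, rose by 0.87 and 0.73, and Slc38a6 by 0.60 and 0.70. Slc38a7, a lysosomal glutamine carrier, was called in mice labelled null (0.70) and not in WT (0.42). The WT call of Slc38a10 was lost without NDWT 3, 4 or 5 or HFWT 1, that of Slc38a6 without NDWT 2 or HFWT 3, and with a pseudocount of 1 those of Slc38a10 in WT and of Slc38a6 and Slc38a9 in both genotypes were lost. None of these 4 was called under median of ratios scaling, and under quantile normalization Slc38a6 and Slc38a9 turned negative.

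Both tested proton-coupled carriers were called higher in both genotypes, though not under every scaling. Slc36a1, which carries small neutral amino acids out of lysosomes (ENSMUSG00000020261.9, GRCm38 chromosome 11, 55204350 to 55236330, plus strand), read 5.61, 6.94, 7.53, 3.62 and 6.43 FPKM in NDWT and 3.99, 2.93, 2.55, 2.89 and 4.25 FPKM in NDKO. On CDAHFD it read 12.3, 10.1, 12.6, 10.7 and 9.73 FPKM in HFWT and 12.0, 10.5, 9.94, 9.56 and 11.4 FPKM in HFKO. The CDAHFD libraries of the 2 genotypes overlapped and all lay above the control libraries, with a log2FC of 0.90 (SE 0.17, FDR 6.98e-05) in WT and 1.68 (SE 0.17, FDR 3.34e-08) in mice labelled null. Slc36a4 rose by 1.24 (SE 0.11, FDR 1.07e-08) in WT and 1.04 (SE 0.11, FDR 1.27e-07) in mice labelled null. Under median of ratios scaling the calls of Slc36a1 in WT (0.36) and of Slc36a4 in mice labelled null (0.54) were lost, and under quantile normalization so were those of Slc36a1 in WT (0.38) and of Slc36a4 in WT (0.44) and in mice labelled null (0.31).

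Of the SLC43 members, Slc43a2, a carrier of large neutral amino acids, rose from 2.29 ± 0.293 to 10.8 ± 1.52 FPKM in WT (2.19 (SE 0.15, FDR 1.62e-10)) and from 2.13 ± 0.0590 to 10.5 ± 3.24 FPKM in mice labelled null (2.20 (SE 0.15, FDR 2.03e-10)). Slc43a3, which carries purine nucleobases rather than amino acids and had the highest level of the 3, read 8.59, 9.25, 8.52, 8.96 and 8.65 FPKM in NDWT, 11.7, 8.13, 10.7, 10.7 and 10.4 FPKM in NDKO, 25.3, 24.2, 22.4, 16.8 and 17.6 FPKM in HFWT and 18.8, 15.8, 20.1, 18.0 and 20.0 FPKM in HFKO. It was higher in each CDAHFD library than in each control library (1.25 (SE 0.11, FDR 7.68e-09) in WT, 0.84 (SE 0.11, FDR 1.6e-06) in mice labelled null), and the call in mice labelled null was lost under median of ratios scaling (0.32) and quantile normalization (0.44). Slc43a1, the third member, was called in WT (0.64 (SE 0.23, FDR 0.0161)) and not in mice labelled null (0.43 (SE 0.23, FDR 0.0974)), and the WT call is lost without NDWT 1 or HFWT 4, with a pseudocount of 1, under median of ratios scaling (0.16, FDR 0.566) and under quantile normalization, where it turned to -0.46.

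At the pseudocount of 0.1 the largest log2FC of the tested members, in both diet comparisons, was that of Slc6a8, the creatine carrier (ENSMUSG00000019558.8, GRCm38 chromosome X, 73673150 to 73682502, plus strand). It read 1.47, 1.06, 0.917, 1.22 and 0.818 FPKM in NDWT and 1.29, 1.39, 1.12, 1.07 and 1.28 FPKM in NDKO. In HFWT it read 14.1, 13.2, 13.5, 13.1 and 12.3 FPKM and in HFKO 12.1, 11.6, 13.7, 10.5 and 15.1 FPKM. The lowest CDAHFD library was several times the highest control library, and the log2FC was 3.50 (SE 0.12, FDR 6.39e-14) in WT and 3.25 (SE 0.12, FDR 2.93e-13) in mice labelled null. With a pseudocount of 0.01 Slc6a7 was above it in WT (4.05 against 3.61), and by voom on fragments so were Slc6a7 (4.09) and Slc7a6 (3.65 against 3.61) in WT and Slc7a6 (3.36 against 3.33) in mice labelled null. Its place by level among the 32 tested members moved from 22 in NDWT to 12 in HFWT.

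The taurine carrier Slc6a6 rose from 13.7 ± 1.16 to 41.9 ± 2.97 FPKM in WT (1.60 (SE 0.07, FDR 1.09e-12)) and by 1.24 (SE 0.07, FDR 3.67e-11) in mice labelled null. Slc6a13 (ENSMUSG00000030108.8, GRCm38 chromosome 6, 121300227 to 121337733, plus strand), with the highest level in this group of osmolyte, GABA and creatine carriers, read 70.0, 62.6, 64.7, 57.6 and 54.2 FPKM in NDWT, 44.6, 56.1, 50.6, 43.5 and 56.6 FPKM in NDKO, 88.9, 75.2, 80.3, 77.6 and 80.5 FPKM in HFWT and 100.5, 79.7, 89.2, 110.4 and 71.8 FPKM in HFKO. The diets did not overlap in either genotype, yet the change was called in mice labelled null (0.84 (SE 0.11, FDR 1e-06)) and fell short of the fold threshold in WT (0.38 (SE 0.11, FDR 0.00321)). Under median of ratios scaling the call of Slc6a13 was lost (0.31) and the WT value turned negative (-0.16, FDR 0.208). Slc6a12, the carrier of betaine and GABA next to it on the chromosome, went the other way: it read 27.2, 25.0, 23.1, 29.1 and 26.3 FPKM in NDWT, 42.9, 33.6, 31.2, 32.6 and 37.8 FPKM in NDKO, 23.5, 19.7, 22.9, 22.9 and 19.0 FPKM in HFWT and 22.2, 21.7, 21.3, 23.8 and 19.0 FPKM in HFKO. It was lower on CDAHFD in mice labelled null (-0.71 (SE 0.09, FDR 9.48e-07)) and did not reach the fold threshold in WT (-0.28 (SE 0.09, FDR 0.0104)).

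Of the amino acid carriers of the SLC6 family 3 were tested. Slc6a16, an orphan member (ENSMUSG00000094152.1, GRCm38 chromosome 7, 45259031 to 45272689, plus strand), fell on CDAHFD: it read 2.23, 2.45, 1.74, 2.53 and 1.95 FPKM in NDWT, 2.54, 2.63, 2.48, 2.12 and 1.87 FPKM in NDKO, 1.03, 1.08, 0.762, 0.624 and 1.09 FPKM in HFWT and 1.04, 1.37, 1.72, 1.29 and 0.889 FPKM in HFKO. The diets did not overlap, and the log2FC was -1.18 (SE 0.17, FDR 4.65e-06) in WT and -0.86 (SE 0.17, FDR 0.000175) in mice labelled null, where the call was lost with a pseudocount of 1 (-0.56). Slc6a7, the proline carrier known from brain, rested on 2 to 15 fragments per control library: it read 0.0770, 0.0900, 0.0340, 0.105 and 0.0300 FPKM in NDWT, 0.217, 0.0530, 0.0800, 0.206 and 0.0890 FPKM in NDKO, 1.89, 1.32, 0.738, 1.09 and 1.04 FPKM in HFWT and 0.786, 0.249, 0.749, 0.560 and 0.911 FPKM in HFKO. Its log2FC of 2.94 (SE 0.30, FDR 5.62e-08) in WT and 1.69 (SE 0.30, FDR 6.15e-05) in mice labelled null is set in part by the pseudocount, and the call in mice labelled null was lost with a pseudocount of 1 (0.54) and under quantile normalization (0.38). Slc6a7 passed the filter through CDAHFD libraries alone.

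Slc6a9, the glycine carrier (ENSMUSG00000028542.11, GRCm38 chromosome 4, 117834506 to 117875198, plus strand), read 4.86, 5.50, 4.27, 3.50 and 2.84 FPKM in NDWT and 1.84, 3.24, 2.38, 2.09 and 3.61 FPKM in NDKO. In HFWT it read 6.95, 6.18, 6.51, 5.63 and 4.94 FPKM and in HFKO 5.58, 5.41, 4.71, 7.32 and 6.46 FPKM. It was higher on CDAHFD in mice labelled null (1.16 (SE 0.19, FDR 1.51e-05)), where the diets did not overlap, and was not called in WT (0.54 (SE 0.19, FDR 0.0129)), where they did. In WT it was called without NDWT 1 (0.60), NDWT 2 (0.65) or HFWT 5 (0.61), and in mice labelled null the call was lost under quantile normalization (0.51). Of its exon bases 30.2% are shared with genes on the other strand. Slc7a6os, with 12.2 ± 1.67 FPKM in NDWT and 14.5 ± 0.940 FPKM in HFWT, was not called on either diet comparison (0.25 (SE 0.09, FDR 0.0168) in WT, 0.05 (SE 0.09, FDR 0.598) in mice labelled null), whereas Slc7a6 beside it rose.

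In bulk tissue a change in the share of a cell type and a change of RNA per cell cannot be told apart, and marker levels of several cell types moved with the diet. Of the stellate cell and myofibroblast markers 10 of 10 tested were higher on CDAHFD in each genotype, and their summed level went from 14.7 to 19.9 FPKM in NDWT and 16.6 to 18.8 FPKM in NDKO to 132 to 282 FPKM in HFWT and 123 to 223 FPKM in HFKO. Macrophage markers summed to 175 to 239 and 149 to 261 FPKM on control diet against 472 to 698 and 361 to 749 FPKM on CDAHFD. Of 9 tested, 4 were higher (44.4%) and 2 lower in WT, and 5 were higher (55.6%) and 2 lower in mice labelled null. Of all tested genes 44.1% were higher and 4.62% lower in WT, and 41.9% and 4.00% in mice labelled null. The WT share of macrophage markers called higher was thus near that of all genes. Cholangiocyte markers (5 of 5 tested higher in each genotype) summed to 15.2 to 18.0 and 12.4 to 15.6 FPKM against 292 to 488 and 182 to 360.5 FPKM. T and B cell markers (7 of 8 higher in each) summed to 1.46 to 4.80 and 3.05 to 6.01 FPKM against 10.2 to 18.7 and 7.41 to 15.5 FPKM, and neutrophil markers (4 of 4 tested higher in each) to 1.92 to 6.09 and 2.18 to 5.92 FPKM against 24.6 to 39.8 and 17.0 to 34.6 FPKM.

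Hepatocyte markers were present in every library, and their sums were 38864 to 45639 FPKM in NDWT, 43891 to 51406 FPKM in NDKO, 29477 to 41703 FPKM in HFWT and 37193 to 49075 FPKM in HFKO. Of 10 tested, 0 were higher and 3 lower in WT, and 0 were higher and 5 lower in mice labelled null. Of all tested genes 4.62% and 4.00% were lower. Endothelial markers summed to 56.3 to 60.2 and 45.6 to 56.1 FPKM against 50.5 to 73.5 and 55.7 to 84.7 FPKM. In WT 2 of 7 were higher and in mice labelled null 3 of 7 (28.6% and 42.9%, against 44.1% and 41.9% of all tested genes). No marker of these 7 lists was at 0 in all libraries. The part of these cell types in the members' changes was not tested.

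Other genes of amino acid handling were given by lists. Of the other amino acid and peptide transporters and their partners, 15 of 17 listed genes were in the table and 7 were tested; 3 were higher and 1 lower in each diet comparison (42.9% higher, against 44.1% of all tested genes in WT and 41.9% in mice labelled null). The same 4 genes were called in both: the lysosomal carriers Mfsd12 (2.69 in WT, 2.78 in mice labelled null, log2FC), Slc15a3 (2.28 and 2.21) and Ctns (0.66 and 0.79) rose, and the vesicular glutamate carrier Slc17a8 fell (-2.58 and -1.45). Their median log2FC was 0.37 in WT and 0.13 in mice labelled null, below the 0.53 and 0.50 of all tested genes.

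Of the genes that sense amino acids for mTORC1, the kinase complex that promotes growth when amino acids are ample, 21 were tested. In WT 6 were higher and 1 lower, and 9 were higher and none lower in mice labelled null (28.6% and 42.9% higher, against 44.1% and 41.9% of all tested genes). Their medians of 0.42 and 0.48 lay below the 0.53 and 0.50 of all tested genes. Of the 4 with the lowest FDR in WT the GTPase gene Rragd rose most (3.41 in WT, 2.75 in mice labelled null, log2FC), and Sesn1 (1.21 and 0.99), Rragc (0.73 and 0.68) and Lamtor3 (0.87 and 0.93) rose in both. Of the GCN2 and ATF4 amino acid response 19 genes were tested, of which 9 were higher and none lower in WT, and 10 were higher and 1 lower in mice labelled null (47.4% and 52.6% higher, against 44.1% and 41.9% of all tested genes), with medians of 0.78 and 0.73. Atf5 was the one that fell (-0.71), and Atf4 itself was not called (0.45 and 0.38). The 4 with the lowest FDR in WT, Nupr1 (3.32 and 2.68), Mthfd2 (2.54 and 2.11), Psat1 (2.83 and 3.07) and Asns, which makes asparagine (3.75 and 3.21), rose in both.

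Promoters were searched for TGATGNAA, the core of the element that ATF4 and C/EBP factors bind, on both strands of the window from 250 bases before to 50 bases after each start in RefSeq (GRCm38.p6). The motif was in at least 1 promoter of 2 of the 41 members that have an entry (4.88%), against 1219 of 27025 genes (4.51%). Among genes that passed the filter it was in 2 of 22 members (9.09%), against 270 of 9739 genes (2.77%). Of the GCN2 and ATF4 list, without that filter, it was in 7 of 21 genes (33.3%, against 4.51% of all genes), Asns and Trib3 among the 7. That list was chosen for its link to ATF4, so its share only checks the search. The share among filtered members rests on 2 genes. As did most tested members (21 of 32 called higher in both genotypes), both members with the motif, Slc1a4 and Slc7a7, rose on CDAHFD. Their promoters are shown because they carry the motif, 5′ to 3′ on the strand of the gene, with its letters in capitals. For Slc1a4 the capitals are the motif on the opposite strand, 4 bases before the start. Slc7a7 holds it at 141 bases and at 1 base before this start, which lies upstream of the gene's start in the deposited table. A further Slc7a7 promoter entry, not shown, holds the letters of the latter site at 243 bases before its own start.
Slc1a4, chr11:20332664-20332963, minus strand: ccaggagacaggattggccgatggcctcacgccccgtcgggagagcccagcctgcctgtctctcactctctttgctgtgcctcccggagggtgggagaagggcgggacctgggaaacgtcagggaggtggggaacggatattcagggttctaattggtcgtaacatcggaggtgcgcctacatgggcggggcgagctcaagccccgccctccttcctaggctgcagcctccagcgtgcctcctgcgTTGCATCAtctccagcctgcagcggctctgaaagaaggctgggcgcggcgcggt
Slc7a7, chr14:54417895-54418194, minus strand: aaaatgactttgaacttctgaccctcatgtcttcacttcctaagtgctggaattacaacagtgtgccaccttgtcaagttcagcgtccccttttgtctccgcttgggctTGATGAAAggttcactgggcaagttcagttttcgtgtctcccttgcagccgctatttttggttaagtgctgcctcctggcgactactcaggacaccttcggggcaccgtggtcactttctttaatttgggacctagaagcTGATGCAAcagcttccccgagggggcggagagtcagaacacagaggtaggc
A match is a description of these letters and not a bound site.

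Genotype was compared within each diet. On the control diet 1 of 32 tested members was higher and 2 were lower in libraries labelled TSP-1 null, where 1.74% of all tested genes were higher and 3.03% lower. The members' median log2FC was 0.02, against -0.07 for all tested genes. These comparisons share their control libraries with the diet comparisons, so a high or low NDKO value enters both.

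Slc7a2 (ENSMUSG00000031596.9, GRCm38 chromosome 8, 40862396 to 40922308, plus strand) was higher in NDKO, with 59.1, 34.0, 54.2, 80.8 and 60.4 FPKM in NDWT and 107, 78.2, 90.2, 126 and 139.9 FPKM in NDKO. On CDAHFD it read 34.6, 47.7, 52.8, 59.8 and 74.4 FPKM in HFWT and 57.7, 83.4, 66.5, 69.9 and 75.9 FPKM in HFKO. NDWT 4 lay just above the lowest NDKO library, so the groups touched, and the log2FC was 0.93 (SE 0.21, FDR 0.00722) on control diet and 0.43 (SE 0.21, FDR 0.309) on CDAHFD. Of the 10 hepatocyte markers 2 were also higher in NDKO and none lower, and the part of this in the value of Slc7a2 was not tested.

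Slc36a1 was lower in NDKO (3.32 ± 0.750 FPKM) than in NDWT (6.03 ± 1.52 FPKM), a log2FC of -0.83 (SE 0.17, FDR 0.00315), and on CDAHFD the genotypes stood at 10.7 ± 1.03 and 11.1 ± 1.29 FPKM (-0.05 (SE 0.17, FDR 0.908)). NDWT 4 was the lowest of its group and lay within the NDKO range, whereas the other 4 NDWT libraries were above every NDKO library. Slc6a9 was lower in NDKO (2.63 ± 0.758 FPKM) than in NDWT (4.20 ± 1.06 FPKM), a log2FC of -0.66 (SE 0.19, FDR 0.0237), and the groups overlapped. Its call is lost without any 1 of NDWT 1, 2 or 3 or NDKO 1, 3 or 4, and with a pseudocount of 1. It is also lost under quantile normalization (-0.54, FDR 0.0536) and when only the 2 groups are fitted.

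**Figure D4:**
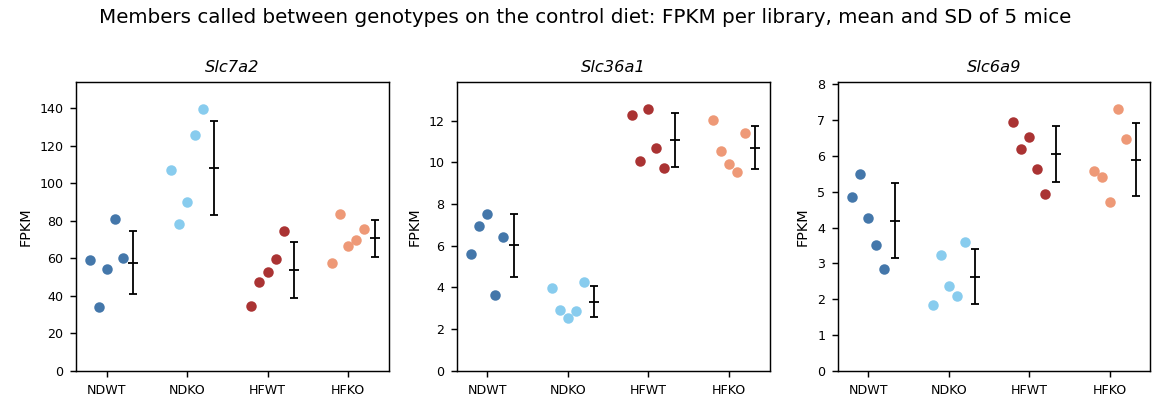
FPKM of the 3 members called between genotypes on the control diet, in each library (points, 5 per group) with the mean and SD of the group (bar), on linear axes from 0. Slc7a2 is higher in NDKO than in NDWT, Slc36a1 and Slc6a9 are lower, and for each of the 3 at least 1 library overlaps between those groups.

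NDWT and NDKO did not overlap for 2 of 32 members (9.03% of all tested genes), Slc6a12 and Slc38a3, both higher in NDKO and neither called. Slc6a12 was higher by 0.44 (SE 0.09, FDR 0.00379), under the fold threshold, and Slc38a3 by 0.30 (SE 0.10, FDR 0.0515). On CDAHFD none of the 32 members was called in either direction, where 0.165% of all tested genes were higher and 0.330% lower in libraries labelled null. At an unadjusted p under 0.05 limma gave 7 of 32 members (21.9%, against 17.2% of all tested genes), the lowest FDR was 0.137, and voom on recovered fragments called none. The largest differences were those of Slc6a7 (-0.84 (SE 0.30, FDR 0.167)) and Slc3a1 (0.69 (SE 0.24, FDR 0.156)).

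Whether the diet response differed between the genotypes was tested as the interaction, the log2FC of HFKO against NDKO less that of HFWT against NDWT. None of the 32 members was called, where 0.337% of all tested genes were higher and 0.310% lower. At an unadjusted p under 0.05 limma gave 11 of 32 members (34.4%, against 15.1% of all tested genes), and voom called none. The lowest FDR was that of Slc38a2 (0.51 (SE 0.14, FDR 0.079)), followed by Slc6a6 (-0.37 (SE 0.10, FDR 0.0883)), Slc6a12 (-0.44 (SE 0.13, FDR 0.104)) and Slc36a1 (0.78 (SE 0.23, FDR 0.115)). Slc36a1 was called without NDWT 4 (0.95, FDR 0.0191) and Slc38a2 without NDWT 5 (0.58, FDR 0.0443). Slc6a7 had the largest interaction, -1.25 (SE 0.43, FDR 0.167), with a 95% interval of -2.15 to -0.35. For Slc3a2, Slc7a1 and Slc43a2 the 95% intervals of the interaction were -0.27 to 0.37, -0.58 to 0.54 and -0.43 to 0.45.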

How the data were processed

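The deposited table gives FPKM, computed by the authors to 3 decimals, for 38924 genes and 20 libraries. The authors sequenced poly(A) libraries made with a directional kit as paired reads, and the submitters' processing notes name STAR 2.5.2, featureCounts and Subread 1.5.1. No normalization between libraries beyond FPKM was found in the values. The notes name a human build, whereas all 59 members overlapped their gene in GENCODE M21 on GRCm38. The series text and the study's methods name different lobes of the liver. The fragments of each gene were worked back from its FPKM, its length and the total that makes a library's values whole. At a tolerance of 0.11 fragments 100% of the values that rounding allowed to be checked were whole after rounding. Libraries carry no molecular identifiers, so fragment counts cover counting error only. No pair of libraries within a group agreed within counting noise (lowest chi-square per degree of freedom 13.0 over 40 pairs).

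All 20 libraries were fitted together with limma 3.58.1 in R 4.3.3 (a mean per group, eBayes with trend) on log2(FPKM + 0.1). FDR is two-sided Benjamini-Hochberg over the 14524 tested genes within a comparison, and intervals are 95%. The fit was tested on simulated data. Values are mean ± SD over 5 mice, and nothing states that mice of a group were independent of cage or litter. Values in every library are given for members called between genotypes or in the interaction, for the 4 called members that rose and the 4 that fell most with each diet comparison, and for the member with the highest mean level in each role. Other lists name at most the 4 genes with the lowest FDR, except that Asns and Trib3 (for the motif), Atf4 and Atf5 were named after their values were seen. The members, roles, lists and tests were chosen with earlier results of these data known. Alternatives were pseudocounts of 0.01 and 1, other filters, median of ratios scaling, quantile normalization, voom on recovered fragments, only the 2 groups compared, a replicate block, no fold threshold and each mouse left out.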

Additional observations from a re-analysis of the deposited data

Results flagged for a closer look

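Of 128 groups of 5 libraries, 9 held a value far from the other 4 of its group, by Dixon's ratio above 0.71. By chance about 1 in 20 groups would. Slc38a3 read 401 FPKM in HFWT 4, above the others of its group. Slc1a4 read 1.31 FPKM in NDKO 5, the highest there. Slc6a6 was high in NDWT 1 at 15.7 FPKM and low in NDKO 4 at 14.6 FPKM. Slc7a6 was high in HFWT 1 at 1.465 FPKM. Slc38a7 was low in NDWT 5 at 6.05 FPKM and in HFWT 5 at 8.125 FPKM. Slc7a1 was high in NDWT 3 at 0.306 FPKM. Slc38a9 was high in NDKO 4 at 1.19 FPKM. No library held more than 2 of the 9 values. No call of these members was ended or added by leaving out the library concerned, and the cause was not tested.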

How the results depend on the processing

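Each of the 55 calls of a member in a comparison kept its direction wherever it was run under median of ratios scaling, both pseudocounts, the other filters, voom, the 2-group fits and single mice left out. Not run were the 4 diet calls of Slc6a7 and Slc7a4 with FPKM above 1, and 10 of the 1100 fits with 1 mouse left out, all for Slc7a4, which then failed the filter. Under quantile normalization 6 turned negative: Slc38a6 (-0.36 in WT, -0.20 in mice labelled null), Slc38a9 (-0.074 and -0.15), Slc43a1 in WT (-0.46) and Slc7a4 in mice labelled null (-0.33). The members called higher in the diet comparisons under quantile normalization were 13 in WT (17.3% of all tested genes) and 14 in mice labelled null (16.7%). Called lower there were 3 in WT (17.6%) and 4 in mice labelled null (15.1%). Of the members that passed the filter through CDAHFD libraries alone, the 13 hold Slc6a7, Slc7a1, Slc7a6 and Slc38a1. The 14 hold Slc7a1, Slc7a6 and Slc38a1. Members called lower in WT were 6 under median of ratios scaling (14.8% of all tested genes), with Slc38a2, Slc38a3, Slc6a12 and Slc7a2 added. Without a fold threshold 4 were lower, where 1268 of 14524 tested genes were. Median of ratios scaling ended 13 calls, among them Slc3a1 and Slc36a1 in WT. Without a filter 26 of 53 members were higher in WT, where 8309 of 25536 genes were, with Slc1a1, Slc7a3, Slc36a2 and Slc38a11 added, all under 0.18 FPKM. In mice labelled null 26 of 53 were higher, where 7575 of 25536 genes were, with Slc36a2 and Slc38a11 added.

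On the control diet, without a fold threshold, 3 members were higher between genotypes and 4 lower, where 504 and 1395 of 14524 tested genes were. With 1 mouse left out 1 to 2 were higher, where 189 to 270 of all tested genes were (Slc43a1 was added without NDKO 2). Lower with 1 mouse left out were 1 to 2, where 343 to 519 of all tested genes were. With a pseudocount of 1, under quantile normalization and with only the 2 groups 1 was lower, where 234, 236 and 308 of 14524 tested genes were. In the interaction 0 to 1 members were called higher with 1 mouse left out, where 19 to 91 of all tested genes were. Replicate numbers are shared between groups, and whether they pair mice is not given in the sources used here. Same-numbered libraries correlated at -0.13 to 0.08 in their deviations from the group means, and 6 of 20 correlated best with their own number. With a replicate block 22 members were higher and 2 lower in WT, where 6423 and 674 of 14524 tested genes were, and it changed no call. Depth limits Slc6a7, Slc7a4, Slc7a6 and the 27 untested members, whose control libraries hold few fragments.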
